A study of Mus musculus with 6 samples.

Results

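The genes described here run the G1 phase of the cell cycle: the D cyclins Ccnd1, Ccnd2 and Ccnd3, the E cyclins Ccne1 and Ccne2, the cyclin-dependent kinases Cdk2, Cdk4 and Cdk6, the transcription factor E2f1 and the retinoblastoma gene Rb1. They were taken as a named list of 10 genes, and every probe set annotated to exactly 1 of them was used. This gave 14 probe sets of 9 genes, among 12422 non-control probe sets on the array. Cdk6 had no such probe set and was not analysed here. The cells were double-negative thymocytes, T cell precursors without CD4 or CD8, and their total RNA was read on 6 single-colour arrays. The 3 double mutant arrays came from mice mutant for both RAG1 and Ezh2, and the 3 arrays set against them came from RAG1-deficient mice, so by the labels RAG1 is disrupted in both groups. WT closes the title of 2 RAG1-deficient arrays, replicates 1 and 3, whose descriptions state RAG1 mutation or deficiency, and the descriptions set the groups here. The labels give no allele, no Cre or deleted exons, no strain, sex or age, and no statement of separate animals, so p-values measure only the spread of these samples, and that spread may be technical.

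D cyclins are made in response to growth and cytokine signals and switch on Cdk4 and Cdk6. These kinases phosphorylate the Rb protein, which then releases E2F factors, and E2F factors drive the E cyclins, E2f1 itself and the genes of DNA replication. Cyclin E with Cdk2 completes the phosphorylation of Rb and starts S phase. In the mouse thymus the D cyclins, cyclin D3 among them, serve the expansion of precursors that have passed the pre-T cell receptor checkpoint. RAG1 is a subunit of the enzyme that cuts antigen receptor genes for their assembly, and cells without it do not pass that checkpoint. Ezh2 is the methyltransferase of Polycomb repressive complex 2 and is itself known as an E2F-regulated gene.

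Values are linear intensities that had been scaled to nearly equal array means before deposit, so a change shared by most transcripts would not be visible. Between 55.3% and 62.2% of probe sets on the double mutant arrays and between 55.2% and 64.3% on the RAG1-deficient arrays exceeded 86.5, the level used as a filter. By the wording of their titles the samples fall into 3 styles (numbered, Rag and Thy), with 1 double mutant and 1 RAG1-deficient array in each, which are replicates 1, 2 and 3 here. Arrays of 1 style deviated together from their group means, so differences are also given within each style pair. Ezh2 stood at 292, 651 and 724 in double mutant cells, against 1435, 1641 and 1789.5 in RAG1-deficient cells. These groups did not overlap, but which exons are deleted, and so whether this probe set lies inside them, is not given in the labels. The brighter Rag1 probe set stood at 5394, 5226 and 5171 in double mutant cells, against 6933, 7241 and 7264 in RAG1-deficient cells. The labels do not say which part of Rag1 is disrupted, so transcript on all 6 arrays does not check the RAG1 genotype. RAG1-deficient replicate 1 stood apart for the co-receptor genes: Cd8a and Cd8b1 were at 2973 and 8426 there, and their highest values elsewhere were 81.3 and 164. The double-negative label therefore goes against the CD8 markers on that array. Its title ends in WT, and the values do not check its RAG1 genotype. Without that array 7 of the 11 tested member differences changed sign or moved by over 1.5 times. Those are given both ways. No member passed with that array or without it.

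Of the 14 probe sets, 11 of 8 genes exceeded the filter on at least 3 of the 6 arrays and were tested. The 11 all passed with arrays of both groups above the filter. Differences were taken on the scale log2(intensity + 23), double mutant minus RAG1-deficient, with limma across all 7642 tested probe sets and Benjamini-Hochberg adjustment at a threshold of 0.05. On this scale the change of dim probe sets is understated. With group as the single term (the unpaired fit), 0 of the 11 member probe sets passed in either direction, where 0.0393% of all tested probe sets passed as higher and 0% as lower. When title style was added as a block (the paired fit), 0 of the 11 passed as well, where 0.563% of all tested probe sets were called higher and 0.105% lower. Ezh2, the mutated gene, was called in the paired fit (limma adjusted p = 0.0261) and not in the unpaired fit (0.332). A probe set that did not pass is therefore not shown to be unchanged. At an unadjusted limma p under 0.05, 1 member probe set was higher in the unpaired fit and 3 were higher in the paired fit, against backgrounds of 2.29% and 7.73%. None of the 11 was lower at that level in either fit, where the backgrounds were 0.903% and 5.4%. The median log2 difference of the 11 was 0.29, with 8 above 0 and 3 below, while the median of all tested probe sets was -0.0021 and 49.6% of them lay above 0. In bulk RNA, fewer cells of a type and less RNA per cell cannot be told apart, and the same holds for the share of cells in cycle.

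**Figure D1:**
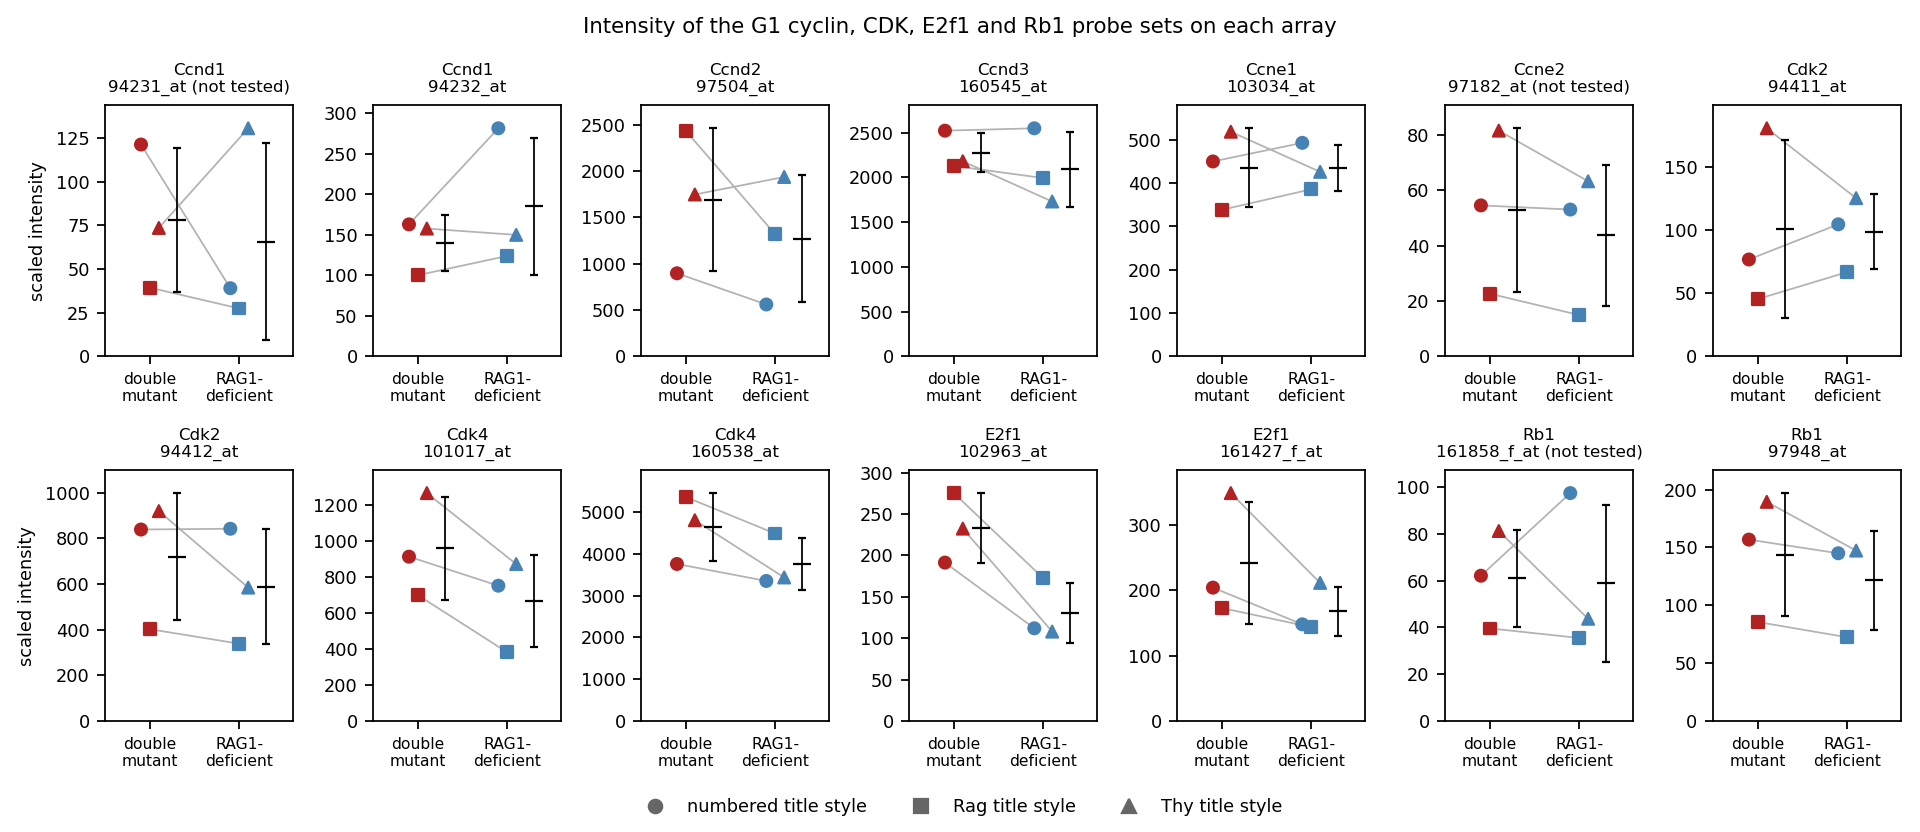
Scaled intensity (vertical axes, linear and starting at 0) of the 14 probe sets in double mutant (red) and RAG1-deficient (blue) thymocytes; marker shapes give the title style, grey lines join arrays of 1 style, and black bars give the mean and SD of 3 arrays. The first E2f1 probe set is the 1 panel in which all double mutant arrays lie above all RAG1-deficient arrays.

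E2f1 was the 1 gene of the 9 measured with a probe set whose groups did not overlap, although it did not pass. It encodes the activating E2F factor that Rb holds in check. Its probe set 102963_at read 191, 275 and 232 in double mutant cells, against 112, 172 and 108 in RAG1-deficient thymocytes. The lowest double mutant array lay above the highest RAG1-deficient array, which 4.21% of all tested probe sets also showed in this direction. Means were 233 ± 42.0 in the double mutant and 131 ± 36.1 in RAG1-deficient cells (SD, n = 3 each), and the log2 difference was 0.75 ± 0.30 (SE) with a 95% interval of 0.055 to 1.44. In limma its adjusted p was 0.9999 unpaired and 0.195 paired. The differences within the numbered, Rag and Thy pairs were 0.67, 0.61 and 0.96, and the overall one lay between 0.63 and 0.931 with 1 array or 1 pair left out.

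The other E2f1 probe set, 161427_f_at, whose suffix marks probes that can detect related transcripts, read 204, 173 and 349 in double mutant cells, against 148, 144 and 211.5 in RAG1-deficient cells. These groups overlapped, because the Rag-style double mutant array lay below the Thy-style RAG1-deficient array. Its log2 difference was 0.44 ± 0.33 (SE) with a 95% interval of -0.32 to 1.19, and it was higher in all 3 pairs. Over the 6 arrays the log2 values of the 2 E2f1 probe sets correlated at 0.331, so they rank the arrays differently. The first was higher on the 2 Rag-style arrays, with a geometric mean 1.43 times that of the other 4, and the second was lower there, at 0.726 times.

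The genes whose arrays followed the first E2f1 probe set most closely were Csrp1, Coq7, Bsn, Pparg and Vopp1, with Pearson r of 0.995, 0.991, 0.984, 0.979 and 0.978 over 6 log2 values. They were the 5 highest of all tested single-gene probe sets of other genes. The E2f1 probe set was taken because its unadjusted p was the smallest of the members in the unpaired fit. Genes that follow it therefore separate the groups as well, which is no further result. Pparg exceeded the filter on the 3 double mutant arrays only, and Bsn and Vopp1 on these and 1 RAG1-deficient array. The 6 arrays share the title styles and the deposited scaling, so this is a description of likeness only. Csrp1 encodes a LIM-domain protein, Coq7 an enzyme of ubiquinone synthesis and Pparg a nuclear receptor of fat cells, and none of the 5 genes is on the lists of the G1/S network used here.

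Among the D cyclins, Ccnd2 and Ccnd3 gave bright signals and Ccnd1 was dim, each on its own probe set scale. Ccnd3 (160545_at) read 2521, 2127 and 2179 in double mutant cells, against 2547.5, 1992 and 1729 in RAG1-deficient cells. The groups overlapped, and the highest of all 6 arrays was only 1.47 times the lowest, the narrowest range among the tested member probe sets. Its log2 difference was 0.14 ± 0.22 (SE), with a 95% interval of -0.37 to 0.65, and the difference was 0.287 without RAG1-deficient replicate 1 and 0.0104 without RAG1-deficient replicate 3. A change of Ccnd3 within that interval could not be told from 0 with these arrays.

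Ccnd2 (97504_at) read 897, 2435 and 1748 in double mutant cells, against 559.8, 1317 and 1937 in RAG1-deficient cells. The numbered arrays were the lowest of each group, and the double mutant array was above its partner in the numbered and Rag pairs and below it in the Thy pair. The log2 difference was 0.46 ± 0.49 (SE), made up of 0.66, 0.87 and -0.15 in the numbered, Rag and Thy pairs. Without RAG1-deficient replicate 1, the array with high CD8 transcripts, it was -0.030. With all arrays its limma adjusted p was 0.9999 unpaired and 0.383 paired.

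Because Ccnd2 and Ccnd3 are alternative partners of the same kinases, their intensities were also set against each other within each array, a ratio that was chosen after the values were seen. The ratio of Ccnd2 to Ccnd3 was 0.356, 1.145 and 0.802 in double mutant cells, against 0.220, 0.662 and 1.12 in RAG1-deficient cells. It was lowest in the numbered pair and overlapped between the groups (log2 difference 0.33, exact two-sided permutation p = 0.6, where 0.1 is the smallest that 3 arrays against 3 allow). Probe sets with different probes do not share a scale, so the ratio orders arrays and does not say which cyclin is more abundant.

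Ccnd1 was read by 94232_at at 163, 100.2 and 158 in double mutant cells, against 282, 124 and 150.0 in RAG1-deficient cells. The groups overlapped and the RAG1-deficient numbered array was the highest. The log2 difference was -0.30 ± 0.37 (SE), and it was 0.0103 without RAG1-deficient replicate 1. A second Ccnd1 probe set, 94231_at, exceeded the filter on 1 array of each group and was not tested. It read 121, 39.3 and 73.5 in double mutant cells, against 39.0, 27.4 and 131 in RAG1-deficient cells, with the lead changing sides between the pairs.

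The E cyclins did not separate the groups. Ccne1 (103034_at), the partner of Cdk2 at the start of S phase, read 450.0, 338 and 519 in double mutant cells, against 493, 386 and 426 in RAG1-deficient cells. Means were 436 ± 91.0 in the double mutant and 435 ± 54.2 in RAG1-deficient cells (SD, n = 3 each). The log2 difference was -0.011 ± 0.24 (SE), with a 95% interval of -0.56 to 0.54, and it was 0.0785 without RAG1-deficient replicate 1. Ccne2 (97182_at) lay under the filter on all 6 arrays, so it was left untested. It read 54.5, 22.6 and 81.5 in double mutant cells, against 53.0, 14.9 and 63.2 in RAG1-deficient cells. The Rag-style array was the lowest of each group, and the groups overlapped.

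Cdk4, the kinase partner of the D cyclins, lay higher in the double mutant array of every pair in both of its probe sets, and neither passed. The brighter one, 160538_at, read 3755, 5355 and 4800.5 in double mutant cells, against 3349, 4482 and 3433 in RAG1-deficient cells. The groups overlapped because the Rag-style RAG1-deficient array lay above the numbered double mutant array. The log2 difference was 0.30 ± 0.23 (SE), with 0.16, 0.26 and 0.48 in the numbered, Rag and Thy pairs and a limma adjusted p of 0.329 in the paired fit. The other, 101017_at, read 914, 699.8 and 1267 in double mutant cells, against 752, 382 and 873 in RAG1-deficient cells. Its log2 difference was 0.54 ± 0.35 (SE), with 0.27, 0.83 and 0.53 in the 3 pairs and a limma adjusted p of 0.201 in the paired fit. Of all tested probe sets 18.8% were higher in all 3 pairs, and so were 5 of the 11 members, namely both of Cdk4, both of E2f1 and the tested one of Rb1. The probe sets of Cdk4 ranked the title styles differently, since 160538_at was 1.29 times as high on the Rag-style arrays as on the other 4 and 101017_at was 0.554 times as high (geometric means).

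Cdk2, the partner of the E cyclins, was read by 94412_at at 838.5, 402 and 919 in double mutant cells, against 842, 339 and 584 in RAG1-deficient cells. Both Rag-style arrays were lowest and the groups overlapped. The log2 difference was 0.29 ± 0.40 (SE), with -0.0055, 0.23 and 0.63 in the numbered, Rag and Thy pairs. It was 0.582 without RAG1-deficient replicate 1. The dimmer 94411_at, which passed the filter on 1 double mutant and 2 RAG1-deficient arrays, read 76.6, 45.3 and 180.4 in double mutant cells, against 104, 66.6 and 125 in RAG1-deficient cells. Its log2 difference was -0.096 ± 0.49 (SE), opposite in sign to that of the brighter probe set, and was -0.0479 without RAG1-deficient replicate 1.

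E2F factors act through promoter sites, and Cdk2 was the 1 member whose promoter window held a match to the E2F consensus, so its window is shown. It is the 250 bases before the RefSeq start of transcription (GRCm38.p6), on the minus strand at chr10:128705052-128705301, read 5′ to 3′ on the gene's strand. The consensus was searched as TTTCCCGC, TTTCGCGC, TTTGCCGC and TTTGGCGC on both strands, and capitals mark the match, which begins 140 bases before the start.
Cdk2: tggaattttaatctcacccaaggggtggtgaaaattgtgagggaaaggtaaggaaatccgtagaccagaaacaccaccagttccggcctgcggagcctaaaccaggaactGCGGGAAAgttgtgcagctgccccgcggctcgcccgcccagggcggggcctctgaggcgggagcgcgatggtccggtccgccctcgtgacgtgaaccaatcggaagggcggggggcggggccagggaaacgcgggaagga
Windows were listed for 6 of the 10 genes, but those of E2f1 and Cdk6 and 1 of Ccnd3 lay inside the annotated gene and were not used. That left Ccnd3, Ccne1, Cdk2 and Cdk4. Of all 19828 windows outside their own gene, 1.59% held at least 1 match. No match says only that these letters are not in the window. The arrays did not measure binding at this promoter.

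Rb1, the pocket protein that the cyclin D kinases inactivate, was read by 97948_at at 157, 85.6 and 189 in double mutant cells, against 145, 72.4 and 147 in RAG1-deficient cells. The double mutant array was above its partner in all 3 pairs, the groups overlapped, and the log2 difference of 0.20 ± 0.41 (SE) was 0.098, 0.19 and 0.32 in the numbered, Rag and Thy pairs. It was 0.334 without RAG1-deficient replicate 1. A second probe set, 161858_f_at, exceeded the filter on 1 RAG1-deficient array and was not tested. It read 62.1, 39.6 and 81.2 in double mutant cells, against 97.4, 35.5 and 43.7 in RAG1-deficient cells.

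**Figure D2:**
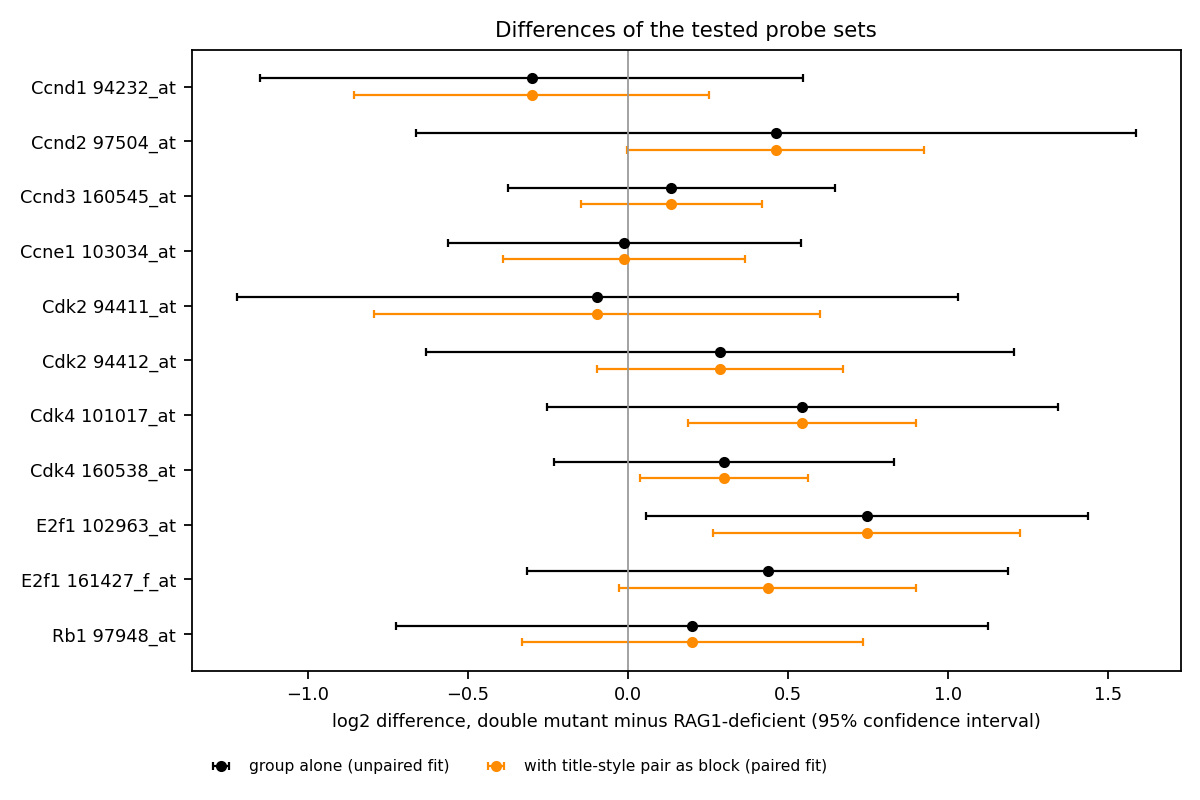
Log2 difference (horizontal axis, double mutant minus RAG1-deficient) of the 11 tested probe sets with 95% confidence intervals from the unpaired fit (black) and the paired fit (orange). In the unpaired fit the interval of 1 E2f1 probe set (0.055 to 1.44) lies above 0, without adjustment for the number of probe sets tested.

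Most of the spread of these genes, like that of most tested probe sets, followed the title style of the array, not the genotype. The median share of title style was 73.1% for the members and 72.1% for all tested probe sets. For genotype the medians were 12.7% and 7.24%. This comparison was added after the values were seen. Title style, which takes 2 degrees of freedom where genotype takes 1, held over 50% of the sum of squares of the 6 arrays for 10 of the 11 member probe sets, where 72.6% of all tested probe sets showed the same. The exception was the first E2f1 probe set, with 72.3% for genotype and 24.6% for title style. Genotype held more than title style for 14.4% of all tested probe sets. Title style passed for 3 of the 11, where 30.2% of all tested probe sets passed (limma F-test in the paired fit), so the members were near the background. These were Ccnd2, Cdk2 94412_at and Cdk4 101017_at, with adjusted p of 0.0123, 0.0141 and 0.0195.

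The direction of the style differences was not shared by the members. On the Rag-style arrays Ccnd2 stood at 1.57 times the geometric mean of the other 4 arrays, whereas Cdk2 stood at 0.474 and 0.470 times over its 2 probe sets and Rb1 97948_at at 0.496 times. Ccnd3 stood at 0.928 times. The Actb control probe set for the 3' end of actin mRNA also separated the styles, at 35475, 5826 and 23267 in double mutant cells, against 38661, 4448 and 26336 in RAG1-deficient cells. The 3'/5' ratio of Actb, a measure of RNA quality, was 1.99, 2.77 and 1.24 in double mutant cells, against 1.91, 2.26 and 1.40 in RAG1-deficient cells (exact two-sided permutation p = 0.9). That of Gapdh was 0.928, 1.14 and 0.836 in double mutant cells, against 1.04, 1.35 and 0.889 in RAG1-deficient cells, lower in the double mutant array of all 3 pairs (log2 difference -0.17, exact two-sided permutation p = 0.6). Both ratios were highest in the Rag pair, and the part of RNA quality in the members' differences was not tested.

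**Figure D3:**
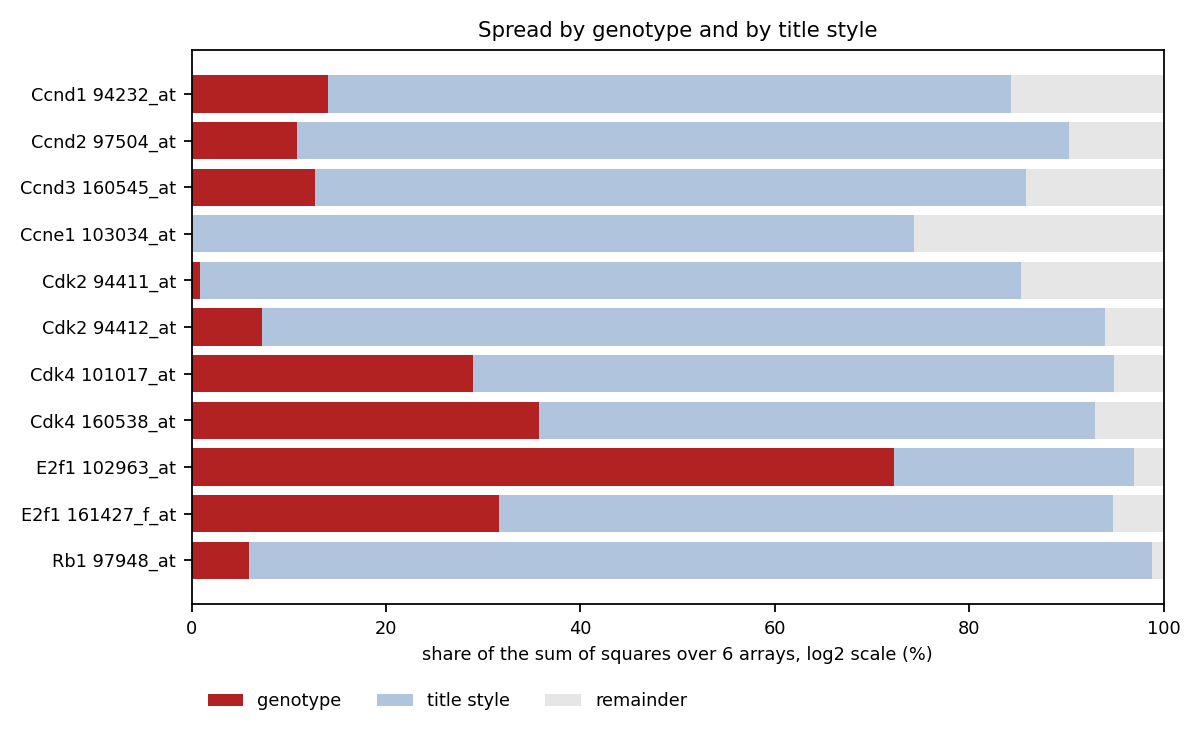
Share of the sum of squares over the 6 arrays (horizontal axis, percent, log2 scale) that goes with genotype (red), with title style (blue-grey) and with neither (light grey), for each tested probe set. The genotype part is widest for E2f1 102963_at, at 72.3%, and title style holds more than the genotype in the other 10.

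Genes next to the members in the G1/S network were described from lists chosen with earlier results of these data known, and 0 of their tested probe sets passed in either limma fit. Of the other E2F factors, their DP partners and the other pocket proteins, 6 of 11 genes were on the array and 8 probe sets were tested. All 8 lay above 0, with a median log2 difference of 0.16. They came from 5 genes, with more than 1 probe set for Tfdp1 and for E2f8, so they are not independent. E2f8, an atypical repressor of E2F targets, read 314, 421 and 478 in double mutant cells, against 206, 219 and 312 in RAG1-deficient cells on its brighter probe set, without overlap, with a log2 difference of 0.67 ± 0.27 (SE). Its other probe set showed 0.41 ± 0.24 (SE). Rbl1, which encodes the pocket protein p107, showed 0.44 ± 0.25 (SE).

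Textbook E2F targets of S phase mostly lay on the same side of 0 as E2f1. With Ezh2 left out because it was the mutated gene, 25 of 29 genes were on the array and 28 probe sets of 24 genes were tested. Of these 27 lay above 0 and 1 below, with a median log2 difference of 0.40, while the median of all tested probe sets was -0.0021. Over the numbered, Rag and Thy pairs the list medians were 0.30, 0.33 and 0.56. At an unadjusted p under 0.05, 5 were higher and 0 lower in the unpaired fit, where 2.29% and 0.903% of all tested probe sets were. In the paired fit 17 were higher and 1 lower, where the shares over all tested probe sets were 7.73% and 5.4%. Mcm3, Mybl2, Cdt1 and Ung each had more than 1 tested probe set, so the 28 are not independent. The 1 below 0 was Uhrf1, a partner of the maintenance DNA methyltransferase, at -0.27 ± 0.30 (SE), named after its values were seen. Cdt1, which loads the replicative helicase, read 2398, 1790.1 and 2383 in double mutant cells, against 1571, 1105 and 1254 in RAG1-deficient cells on its brighter probe set. The groups did not overlap, and the log2 difference was 0.73 ± 0.23 (SE) with a limma adjusted p of 0.0583 in the paired fit. Another Cdt1 probe set showed 0.18 ± 0.27 (SE). Mybl2, a transcription factor of proliferating cells, read 564, 476 and 645.5 in double mutant cells, against 308, 385 and 370.2 in RAG1-deficient cells, with a log2 difference of 0.63 ± 0.23 (SE). Its other probe set showed 0.53 ± 0.45 (SE) and overlapped.

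The cyclins and kinase of S phase to mitosis lay above 0 in all 4 tested probe sets, with a median log2 difference of 0.24. Cdk1, the mitotic kinase, showed 0.35 ± 0.24 (SE) and cyclin gene Ccnb2 0.27 ± 0.21 (SE). The inhibitors of the G1 kinases went both ways, with 2 above and 3 below 0 among 5 tested probe sets. Cdkn2c, an INK4 inhibitor of Cdk4 and Cdk6, read 1236, 635 and 1197 in double mutant cells, against 957, 461 and 731.5 in RAG1-deficient cells, and was higher in all 3 pairs with a log2 difference of 0.50 ± 0.35 (SE). Cdkn2d showed -0.24 ± 0.34 (SE).

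Genes that activate the CDKs or degrade their partners also went both ways, with 4 above and 5 below 0. Fbxw7, the ubiquitin ligase subunit that targets cyclin E for degradation, read 235, 392 and 294 in double mutant cells, against 335.5, 734.5 and 560.5 in RAG1-deficient cells. It was lower in all 3 pairs, the groups overlapped, and its log2 difference was -0.74 ± 0.33 (SE) with a limma adjusted p of 0.124 in the paired fit. Cks1b, which helps the degradation of the inhibitor p27, showed 0.40 ± 0.26 (SE). Receptors and factors known to act on D cyclin levels gave 9 above and 8 below 0. Stat5a, which relays interleukin 7 signals, showed 0.42 ± 0.24 (SE) and 0.36 ± 0.22 (SE) over 2 probe sets, and the interleukin 7 receptor gene Il7r showed -0.39 ± 0.24 (SE).

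**Figure D4:**
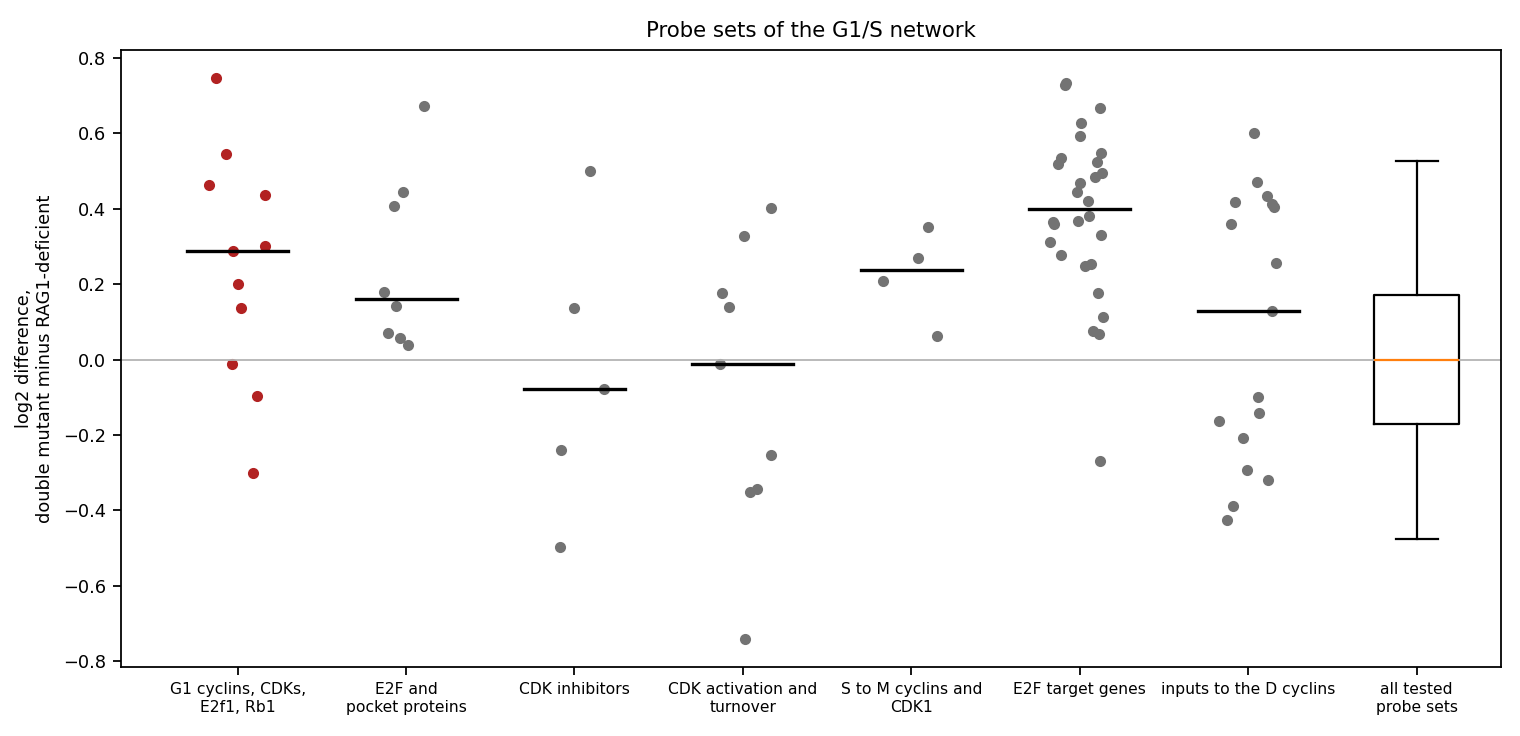
Log2 difference (vertical axis, double mutant minus RAG1-deficient) of each tested probe set in the list of G1 genes (red) and in 6 neighbouring lists (grey), with black lines at the medians; the box gives the quartiles of all 7642 tested probe sets and its whiskers the 5th and 95th percentiles. The median is 0.29 for the G1 genes and 0.40 for the E2F targets.

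Markers of other cells also differed in level between the arrays. The summed intensity of the double-positive stage markers (8 probe sets of 7 genes) was 1082.5 to 1203 in double mutant cells, against 1421 to 13319.9 in RAG1-deficient cells, without overlap. Among its genes Cd4 showed -1.13 ± 0.63 (SE) and Ccr9, a chemokine receptor, -0.82 ± 0.39 (SE). The sum of NK and innate lymphoid markers (10 probe sets of 8 genes) was 8269 to 10461 in double mutant cells, against 3008 to 4626 in RAG1-deficient cells, again without overlap, and Gzma was its brightest probe set on all 6 arrays. Without Gzma the sums were 2365, 2004 and 3286 in double mutant cells, against 1830, 2392 and 1764 in RAG1-deficient cells, and overlapped. The granzyme genes Gzma and Gzmb rose in the paired fit, with log2 differences of 1.79 ± 0.12 and 1.31 ± 0.17 (SE, limma adjusted p = 0.00356 and 0.0261), and did not pass in the unpaired fit (0.267 and 0.542). Of the 8 tested probe sets of that list 5 lay above 0 and 3 below. Pdgfrb, a growth factor receptor of mesenchymal cells on the stromal list, also rose in the paired fit, by 1.22 ± 0.18 on the log2 scale (SE, limma adjusted p = 0.0436), and did not pass unpaired (0.332). It was the 1 tested probe set of the stromal list above 0, and 5 lay below.

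The sums of B lineage, myeloid, antigen-presenting, erythroid and stromal markers overlapped between the groups. The erythroid sum was 1222 and 571 on the Thy-style double mutant and RAG1-deficient arrays, against 16925 to 30902 on the others. On the same arrays the antigen-presenting sum was 4247.5 and 4280, against 9299 to 28538 on the others. The myeloid sum was 12636.5 on the Rag-style RAG1-deficient array and 3029.5 to 5065 on the others. None of the genes named next passed in either fit. On the B lineage list Pax5 showed -0.85 ± 0.48 (SE) and Ighm -0.41 ± 0.28 (SE) and -0.31 ± 0.31 (SE) over 2 tested probe sets. On the myeloid list Lyz2 showed -0.51 ± 0.35 (SE) and Csf1r -0.49 ± 0.42 (SE) and -0.37 ± 0.61 (SE). That list went both ways, with 3 of its 7 tested probe sets above 0 and 4 below. Itgax and Ciita, of antigen-presenting cells, showed -0.36 ± 0.23 and -0.41 ± 0.33 (SE). The erythroid genes Epor and Klf1 showed 1.05 ± 0.41 and 0.18 ± 0.39 (SE). Double-negative T lineage markers summed to 42514 to 51616 in the double mutant and 44643 to 63773 in RAG1-deficient cells. Of these Ptcra, the pre-T cell receptor alpha gene, showed -0.66 ± 0.24 (SE), and Rag1 showed -0.44 ± 0.19 (SE) and -0.29 ± 0.36 (SE) over 2 probe sets. No marker was listed at 0 on any array. E2f1 102963_at showed a log2 difference of 0.665 without RAG1-deficient replicate 1, against 0.75 with all arrays. In that fit 7 of the 11 tested members changed sign or moved by over 1.5 times. Leaving out 1 array with high CD8 transcripts does not measure RNA from other cells. The part of RNA from other cells in the differences of the G1 genes was not tested.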

How the data were processed

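The authors deposited 1 table of linear intensities for 6 arrays. How they made it is not given in the sources used here. From the deposited intensity values, the 2% trimmed means lay between 500.293 and 500.37, so arrays had been scaled alike. No detection calls were used. Precision is limited by the number of arrays. Groups came from the sample descriptions. The 66 control probe sets were left out. Genes were named from the platform's probe table, updated by Entrez number through a RefSeq table of GRCm38.p6: 10833 probe sets had 1 gene, 396 several and 1193 none. The offset of 23 and the filter of 86.5 are the 20th and 40th percentiles of the whole table, the offset rounded.

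The group contrast was fitted in R 4.3.3 with limma 3.58.1 (eBayes with trend, two-sided); the fit was tested on simulated data. Figures used matplotlib 3.10.9. Title styles were taken as pairs because deviations from the group means correlated at 0.57, 0.736 and 0.602 within styles, all over 0.1, and between -0.544 and 0.0394 across them. Deviations sum to 0 within each group, so high values within styles go with low ones across them by construction. The block was thus chosen from the same values that the paired fit and the F-test use, and their p-values may be too small. No label states a shared batch. All member probe sets are described; from each other list, probe sets that passed in either fit, otherwise the 2 with the smallest unadjusted p of the unpaired fit. Members and lists were chosen with earlier results of these data known. Alternatives were other scalings, offsets and filters, no trend, the block, and leaving out arrays or pairs.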

Additional observations from a re-analysis of the deposited data

How the results depend on the processing

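No member probe set passed, higher or lower, under any alternative run (0 in each), and 116 of 116 values of single members kept their sign and side of the threshold outside the fits that leave arrays out. The block, the filters and the trend setting leave the log2 difference itself as it is, so its sign could not change there. Median centring shifts all members alike. In the unpaired fit the members' limma adjusted p was 0.9999, far from the threshold, so this count is a weak check. The 60th percentile filter tested only 6 member probe sets. Both of E2f1, Ccnd1 94232_at, Cdk2 94411_at and Rb1 97948_at were not tested there. Over the whole array 3 probe sets were higher and 0 lower in the unpaired fit. With the replicate block these were 43 and 8. Unpaired, the count higher was 5 with quantile scaling, 5 with median centring and 6 with the 60th percentile filter. With the replicate block it was 17 with quantile scaling, 39 (and 8 lower) with median centring and 5 without the filter, 3 combinations added after seeing the data. The Ezh2 log2 difference did not pass in the unpaired fit (limma adjusted p = 0.332). It passed with the block at -1.6 (adjusted p = 0.0261) and, with median centring and the block, at -1.61. In block fits it lost that call under quantile scaling (adjusted p = 0.0569) and with no filter (0.0716), and also when the numbered (0.0796) or Thy (0.111) pair was left out. With the 60th percentile filter, which tests fewer genes, list medians were 0.294 for E2F and pocket proteins, 0.0632 for CDK activation and turnover and -0.0978 for the inputs to the D cyclins.

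With 1 array or pair left out, 0 to 127 probe sets were higher and 0 to 64 lower, both highest with the block and the Rag pair left out, and Ezh2 lay between -1.83 and -1.21. The median lay between 0.111 and 0.364 for the members, 0.239 and 0.52 for E2F targets, 0.0328 and 0.493 for E2F and pocket proteins, -0.274 and 0.327 for CDK inhibitors, -0.104 and 0.0585 for CDK activation and turnover, 0.081 and 0.406 for S to M cyclins, and -0.182 and 0.353 for the inputs. Members that changed sign there were Ccnd1 (-0.516 to 0.0103), Ccnd2 (-0.0299 to 0.856), Ccne1 (-0.152 to 0.151), Cdk2 94411_at (-0.53 to 0.257) and 94412_at (-0.0471 to 0.648) and Rb1 (-0.0742 to 0.484). Those that kept theirs were E2f1 102963_at (0.63 to 0.931) and 161427_f_at (0.164 without double mutant replicate 3, to 0.626), Cdk4 101017_at (0.198 without RAG1-deficient replicate 2, to 0.77) and 160538_at (0.189 without double mutant replicate 2, to 0.444), and Ccnd3 (0.0104 without RAG1-deficient replicate 3, to 0.287). The cause of these changes was not tested. Single arrays without a partner leave their title style in 1 group only.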
